A study of Cavia porcellus with 9 samples.

Results

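Acid-sensing ion channel (ASIC) and P2X receptor genes were followed in retinas of guinea pigs kept under light of 3 kinds, green, blue or white. The 10 genes asked for were Asic1, Asic2, Asic3, Asic4, P2rx1, P2rx2, P2rx3, P2rx4, P2rx6 and P2rx7. Of these, 9 had a row under their symbol among the 19962 genes of the count table. Asic2 had none, but the row LOC100717745 carries the gene number of Asic2 in the RefSeq names table (assembly mCavPor4.1), so its values are shown beside the members. The set was assembled because Asic1 was highest under green and lowest under blue light, P2rx6 was highest under blue and lowest under green, and white lay between in both. The values of these 2 genes are therefore described with no test. The other members came in by family. The list was drawn up with earlier results of these data known, and it leaves out P2rx5 and Asic5, which also have rows in the count table.

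The animals were male tri-color Dunkin-Hartley guinea pigs (Cavia porcellus), received at 2 weeks of age and kept on 12 hours of light a day. The labels give 45 animals in the study, 3 lighting groups, 8 weeks of lighting and an age of 12 weeks for the sampled retinas. RNA sequencing libraries of retina number 3 under green, 3 under blue and 3 under white light, the last being the reference for both colours. Within each light, 2 of the 3 titles name the same animal, so 2 animal labels stand behind each light, and the spread between libraries is partly a spread within an animal.

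ASICs are trimeric sodium channels that open when the fluid outside a neuron turns acid. Asic1 and Asic2 subunits are widespread in the central nervous system, Asic3 is best known from sensory neurons, and Asic4 forms no proton-gated channel on its own. P2X receptors are trimeric cation channels opened by extracellular ATP. In the retina, protons and ATP both act as signals between cells, and acidification of the photoreceptor synaptic cleft is part of the feedback from horizontal cells.

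The libraries held 62155041 to 74979806 counts, and 15469 genes passed the filter on low counts. Levels are CPM, a gene's share of its library's counts on a common scale, adjusted by TMM, a factor that evens out library composition. Markers of retinal cells were present throughout, with 9 of 9 rod markers summing to 65750 to 83730 CPM under green, 77490 to 85720 under blue and 76570 to 84800 under white light. Markers of pigment epithelium, which lies behind the photoreceptors, varied within groups. The sums over 12 of 12 markers were 281.5, 763 and 267 CPM in green libraries 1 to 3, 551.5, 601 and 754 CPM in blue, and 392, 787 and 334 CPM in white. Lens markers, which a dissected retina can carry over, summed over 16 of 16 to 124.9 to 143 CPM under green, 90.9 to 138 CPM under blue and 64.4 to 115 CPM under white light. That sum did not overlap between green and white, where 9 of the 16 genes lay higher in green without overlap and the median log2 difference was 0.76. Its part in the green minus white differences of the members was not tested. Levels come from whole retina, so fewer cells of a type and less RNA per cell cannot be told apart. Transcript lengths were not used, so levels are compared between libraries and not between genes.

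Asic1, whose subunit forms the main proton-gated channel of central neurons, had 27.5, 33.5 and 32.7 CPM in green libraries 1 to 3. It had 21.2, 19.0 and 20.1 CPM in the blue libraries and 26.4, 27.1 and 23.3 CPM in the white ones. Every green library lay above every white one, and every white library above every blue one. The gaps were narrow on the green side, where the lowest green library stood at 27.5 CPM and the highest white one at 27.1 CPM. The mean was 31.3 ± 3.29 CPM under green, 20.1 ± 1.11 CPM under blue and 25.6 ± 2.04 CPM under white light (SD, n = 3 each). On the log2 scale green differed from white by 0.29 ± 0.11 (SE), blue from white by -0.35 ± 0.11 and green from blue by 0.64 ± 0.11.

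P2rx6 encodes a P2X subunit that traffics poorly to the membrane alone and combines with other subunits such as P2rx2 and P2rx4. It had 20.7, 17.2 and 18.8 CPM in the green libraries, 28.8, 25.7 and 27.3 CPM in the blue ones and 21.6, 23.4 and 21.55 CPM in the white ones. The order was the reverse of that of Asic1, again with no overlap between any of the 3 lights. Its mean was 18.9 ± 1.755 CPM under green, 27.2 ± 1.545 CPM under blue and 22.2 ± 1.02 CPM under white light (SD, n = 3 each). The log2 differences were -0.23 ± 0.10 (SE) for green minus white, 0.30 ± 0.10 for blue minus white and -0.53 ± 0.10 for green minus blue.

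**Figure D1:**
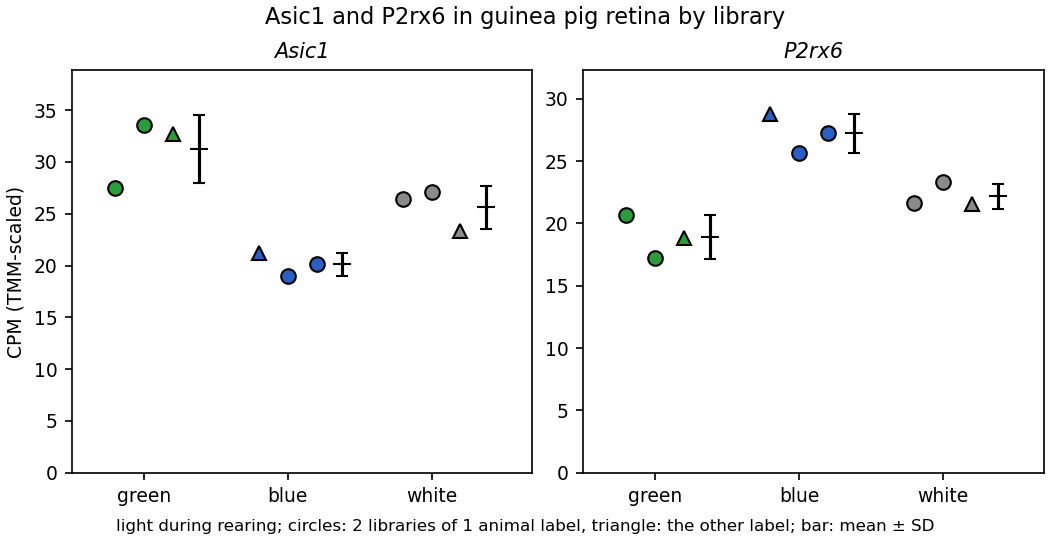
Levels of Asic1 (left) and P2rx6 (right) in each library, in TMM-scaled CPM, for green, blue and white rearing light. Circles are the 2 libraries of a shared animal label, the triangle is the other label, and the bar is the mean with its SD. Asic1 runs from 27.5 to 33.5 CPM in green and from 19.0 to 21.2 CPM in blue libraries, P2rx6 from 17.2 to 20.7 CPM in green and from 25.7 to 28.8 CPM in blue libraries.

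Because these genes were chosen for this order, their separation is a description only. Over all 15469 genes tested, 32 (0.207%) had white between the colours with no overlap at either step, 13 of them with green highest (0.084%) and 19 with blue highest (0.123%). A gene's mean alone fell in the order green, white, blue for 19.9% of genes and in the opposite order for 19.1%. The ratio of Asic1 to P2rx6 counts within a library, which does not depend on library scaling, was 1.33, 1.95 and 1.74 under green, 0.738, 0.741 and 0.737 under blue and 1.22, 1.16 and 1.081 under white light. Under blue the ratio hardly moved between libraries, while under green it varied most and was lowest in library 1.

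The same values can be read by animal label, as a further description of the pattern that chose the genes. Green animal 11, with 2 libraries both titled as the right eye, averaged 30.5 CPM of Asic1 and green animal 16 had 32.7 CPM. Blue animal 32 averaged 19.6 CPM and the other blue animal had 21.2 CPM, and white animal 6 averaged 26.8 CPM against 23.3 CPM in the other white animal. For P2rx6 the animals stood at 19.0 and 18.8 CPM under green, 26.5 and 28.8 CPM under blue, and 22.5 and 21.55 CPM under white light. With counts summed per animal label, the green minus blue difference was 0.63 ± 0.13 (SE) for Asic1 and -0.54 ± 0.12 for P2rx6 on the log2 scale, with 2 animals a group.

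By the root mean square difference of centred log2 levels over the 9 libraries, the genes most like Asic1 among 12400 with a symbol and at least 1 CPM were Wdr90, Stc1, Abhd14a, Sfxn2 and Gp1ba. Their distances ran from 0.118 to 0.148, where Asic1's own root mean square deviation was 0.276. Wdr90 had 25.5 ± 2.91 CPM under green, 18.7 ± 1.025 CPM under blue and 23.05 ± 0.240 CPM under white light (SD, n = 3 each). Stc1, which encodes the secreted glycoprotein stanniocalcin 1, averaged 30.2 CPM under green, 23.75 CPM under blue and 26.7 CPM under white. The genes nearest to P2rx6 were Mb21d2, Btd, Snrpg, Pfdn1 and Fdxacb1, at distances from 0.0886 to 0.102, where P2rx6's own deviation was 0.230. Btd, the gene of the biotin-recycling enzyme biotinidase, averaged 16.8 CPM under green, 22.3 CPM under blue and 18.7 CPM under white. Pfdn1, a subunit of the chaperone prefoldin, averaged 34.4 CPM under green, 44.1 CPM under blue and 37.2 CPM under white. These distances describe likeness over 9 shared libraries and carry no test.

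Among the other ASIC genes, Asic3 had the widest spread over libraries. It had 33.5, 15.03 and 26.0 CPM in the green libraries, 14.7, 13.6 and 9.61 CPM in the blue ones and 19.7, 19.1 and 14.6 CPM in the white ones. Green and blue did not overlap, though the lowest green library, at 15.03 CPM, was close to the highest blue one at 14.7 CPM. White overlapped both. The means were 24.8 ± 9.29 CPM under green, 12.6 ± 2.68 CPM under blue and 17.8 ± 2.79 CPM under white light (SD, n = 3 each), the same order as in Asic1. The joint test of any difference among the 3 lights gave an unadjusted p of 0.0102 for Asic3, which did not pass over all genes (edgeR's quasi-likelihood test, Benjamini-Hochberg adjusted p = 0.755). The green minus blue difference of 0.98 ± 0.26 (SE) on the log2 scale did not pass in edgeR (adjusted p = 0.578), whereas DESeq2 called it (adjusted p = 0.0312). Over the alternatives the adjusted p of that difference ran from 0.0312 in DESeq2 to 0.996. The highest value came with the summed pigment epithelium markers as a covariate, where the difference was 0.67 ± 0.26 (SE). With that covariate the joint edgeR adjusted p was high for every member tested, at 0.9967 for P2rx3 and 0.9989 for the others.

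Green libraries 1 and 2, which share the label of animal 11 and of its right eye, differed 2.23-fold in Asic3. In this pair of libraries, 98.5% of 13556 genes at 1 CPM or more differed by a smaller factor, and the median gene differed 1.15-fold. The same 2 libraries stood at 281.5 and 763 CPM of summed pigment epithelium markers. Rpe65, the isomerase of the visual cycle, had 14.35 and 102 CPM of this, and Rgr alone 177.1 and 366.8 CPM. Slc45a2 of the same list went the other way, at 38.4 and 27.75 CPM. So did Tyr, Tyrp1 and Dct, which reached at most 0.372 CPM in these 2 libraries. The part of pigment epithelium in the level of Asic3 was not tested. The covariate fit tested the lights only and not the covariate itself. Between the libraries of blue animal 32 Asic3 differed 1.41-fold and between those of white animal 6 by 1.035-fold. Summed pigment epithelium markers stood at 601 and 754 CPM in that blue pair and at 392 and 787 CPM in that white pair. White library 3, of the other white animal, had 334 CPM of these markers and 14.6 CPM of Asic3, the lowest of the white group.

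Asic4, whose protein has been described as a modulator of other ASICs, had 184, 200.5 and 225 CPM in the green libraries, 200.0, 222 and 220.3 CPM in the blue ones and 173.5, 202 and 198 CPM in the white ones. The groups overlapped in every comparison and the joint test did not pass (edgeR adjusted p = 0.924). Its highest library was 1.30 times its lowest, against 1.76 times for Asic1 and 3.485 times for Asic3. LOC100717745, the row numbered as Asic2, had 1207, 1181 and 911 counts under green, 1183, 1154 and 1156 counts under blue and 1037, 1116 and 919 counts under white light. Its scaled level averaged 15.6 ± 2.71 CPM under green, 16.4 ± 0.677 CPM under blue and 15.4 ± 0.677 CPM under white (SD, n = 3 each). Its groups overlapped as well (joint edgeR adjusted p = 0.970), with log2 differences of 0.02 ± 0.13 (SE) for green minus white, 0.09 ± 0.13 for blue minus white and -0.07 ± 0.13 for green minus blue. Asic5, the remaining gene of the family, had 3 counts in blue library 2 and 0 in the other 8 libraries. By counting error alone, and if a unit is a single fragment, a count of 0 allows at most 3 counts. These correspond to 0.04 to 0.0483 CPM depending on the library. A unit may not be a single fragment, as described under processing, so this limit may be too low.

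**Figure D2:**
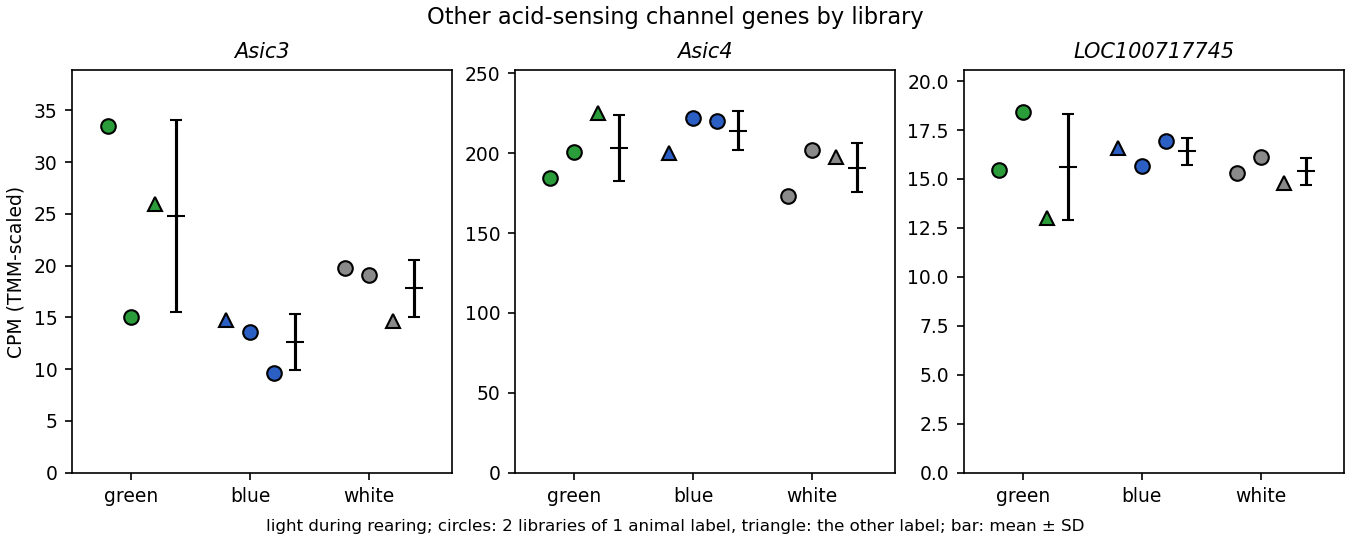
Levels of Asic3, Asic4 and LOC100717745 (numbered as Asic2) in each library, in TMM-scaled CPM, for green, blue and white rearing light, with circles for the 2 libraries of a shared animal label, a triangle for the other label and bars for mean and SD. The green libraries of Asic3 spread from 15.03 to 33.5 CPM, while the groups of Asic4 and LOC100717745 overlap.

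P2rx3, the ATP receptor best known from sensory neurons, was lowest under green light. It had 9.735, 7.575 and 7.95 CPM in the green libraries, 7.87, 11.8 and 9.96 CPM in the blue ones and 12.4, 10.9 and 12.5 CPM in the white ones. No green library reached a white one, and blue overlapped both. The means were 8.42 ± 1.155 CPM under green, 9.88 ± 1.97 CPM under blue and 11.9 ± 0.917 CPM under white light (SD, n = 3 each). The log2 difference between green and white was -0.50 ± 0.17 (SE), with an unadjusted p of 0.0118 that did not pass over all genes (edgeR adjusted p = 0.837, and 0.4155 in DESeq2). The joint test did not pass either (edgeR adjusted p = 0.816).

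P2rx4 encodes a broadly expressed, calcium-permeable receptor that microglia also carry. It had 4.925, 6.69 and 8.945 CPM in the green libraries, 7.81, 7.24 and 7.83 CPM in the blue ones and 5.66, 7.80 and 6.68 CPM in the white ones. All 3 groups overlapped, the blue ones lay closest together, and the joint test did not pass (edgeR adjusted p = 0.953). The sign of its green minus white difference, 0.03 ± 0.21 (SE) on the log2 scale, changed in 2 of 19 alternatives.

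P2rx7, the receptor through which sustained ATP activates the inflammasome in myeloid cells, had 7.12, 2.85 and 1.50 CPM in the green libraries. It had 1.68, 2.14 and 1.85 CPM in the blue libraries and 4.55, 3.90 and 1.46 CPM in the white ones. Green library 1 and the 2 libraries of white animal 6 were the high ones, and the other white animal stood as low as the blue animals. The joint test did not pass (edgeR adjusted p = 0.897). The log2 difference between green and white was 0.21 ± 0.51 (SE) with all libraries and -0.97 ± 0.33 without both libraries whose titles end in "-B", which are green library 1 and white library 3. It was -0.61 ± 0.44 without green library 1 alone and -0.15 ± 0.50 without white library 3 alone. In the green pair of animal 11 P2rx7 differed 2.50-fold, more than 98.95% of genes in that pair. Summed markers of microglia (12 of 13 in the table) did not follow it. Under green light they summed to 60.2, 69.4 and 61.9 CPM, with 51.6, 63.3 and 62.4 CPM in the blue libraries and 56.0, 63.9 and 65.1 CPM in the white ones.

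P2rx1, known from smooth muscle and platelets, was near the limit of detection, with 24, 24 and 31 counts under green, 36, 10 and 0 under blue and 20, 25 and 8 under white light. Its levels reached at most 0.505 CPM, in blue library 1, and the groups overlapped (joint edgeR adjusted p = 0.96). P2rx2, a subunit of neuronal ATP receptors, did not pass the filter. It had 0, 0 and 11 counts under green, 0, 8 and 4 under blue and 0 in each library under white light, so no fold was formed. P2rx5, which is no member, had 0.821, 0.592 and 0.342 CPM under green, 0.575, 0.678 and 0.587 CPM under blue and 0.398, 0.6935 and 0.434 CPM under white light, with overlap in all comparisons (joint edgeR adjusted p = 0.976).

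**Figure D3:**
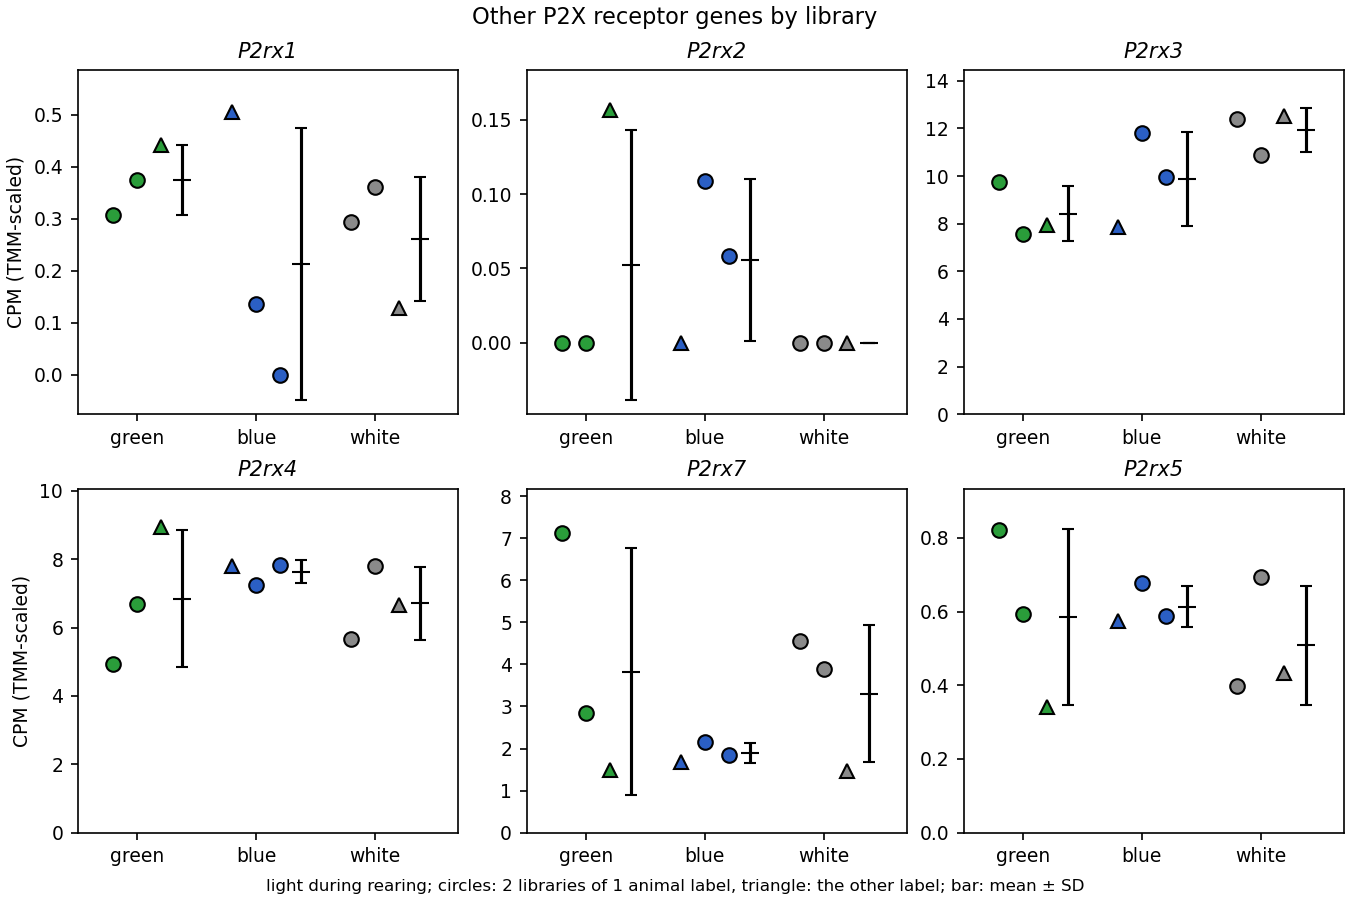
Levels of P2rx1, P2rx2, P2rx3, P2rx4, P2rx7 and P2rx5 in each library, in TMM-scaled CPM, with symbols for animal labels and bars for mean and SD under green, blue and white light. P2rx3 lies between 7.575 and 9.735 CPM in green and between 10.9 and 12.5 CPM in white libraries, and P2rx7 is high in green library 1 and in 2 white libraries.

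Of the 9 members in the table, 8 passed the filter, and 6 of these were genes other than Asic1 and P2rx6. The joint edgeR test called 0 of the 6, with 2 at an unadjusted p under 0.05 (Asic3 and P2rx3) and 0 called by DESeq2. Over all genes that test called 0.00646%, a single locus, 5.94% had an unadjusted p under 0.05, and DESeq2 called 0.53%. Green minus white gave 0 calls among the 6 in edgeR and in DESeq2, which called 0.00646% and 0.155% of all genes. In edgeR 1 of the 6 had an unadjusted p under 0.05, against 5.81% of all genes. Blue minus white gave 0 calls in both tools, where edgeR called 0.00646% and DESeq2 0.181% of all genes, and 0 of the 6 had an unadjusted p under 0.05, against 4.45% of all genes. In green minus blue, edgeR called 0 of the 6 and 0% of all genes, and 1 of the 6 had an unadjusted p under 0.05, against 7.18% of all genes. DESeq2 called 1 of the 6, Asic3, and 0.265% of all genes. Between green and blue the groups did not overlap for 1 of the 6, against 14.2% of all genes. Between green and white that held for 1 of the 6, against 10.1% of all genes, and between blue and white for 0, against 9.9%. These shares without overlap are near the background. The 2 of 6 at an unadjusted p under 0.05 in the joint edgeR test (33.3%) and the DESeq2 call of Asic3 lie above their background. With 6 genes, such counts are too small to read as a result about the set. The comparisons share libraries, so they are given side by side and not as separate support.

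**Figure D4:**
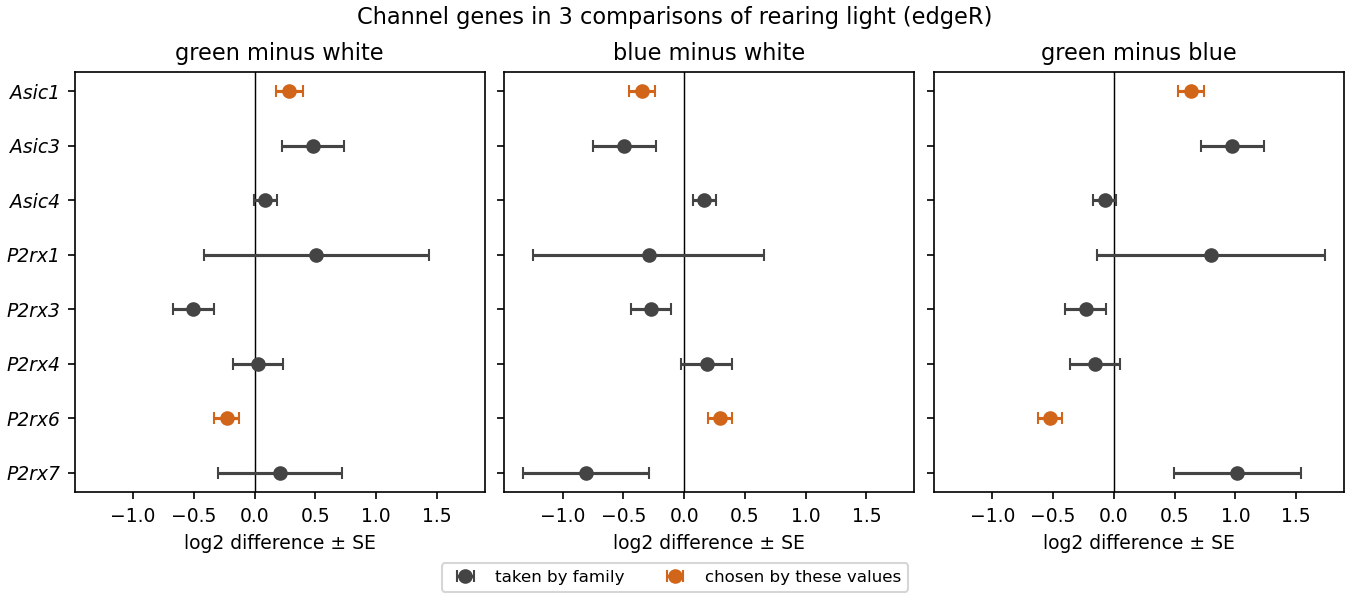
Log2 differences with SE from edgeR for the 8 members that passed the filter, in the contrasts of green with white, blue with white and green with blue. Orange points are Asic1 and P2rx6, which were chosen by these values, at 0.64 and -0.53 in green minus blue, and grey points came in by family, of which Asic3 stands at 0.98.

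The genes around these channels were taken from 8 lists on purinergic and acid-related functions, with 101 different genes tested. In edgeR 0 of the 101 passed in the joint test or in any contrast, and 4.95% had an unadjusted p under 0.05 in the joint test, against 5.94% of all genes. DESeq2 called 2 in the joint test, Gja1 and Txnip, where it called 0.53% of all genes, and 1 in blue minus white, Txnip, where it called 0.181%.

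Of the G protein-coupled P2Y nucleotide receptors, 7 were tested, of which 5 stood higher and 2 lower in green than in white, with a median log2 difference of 0.30 where the median of all genes was 0.009. In green minus blue 6 were higher and 1 lower, with a median of 0.34 against -0.003 for all genes. That median is the value of P2ry14, which reached at most 0.214 CPM. P2ry1, an ADP receptor, had 6.375, 5.11 and 5.66 CPM in the green libraries against 4.87, 4.16 and 4.58 CPM in the blue ones, without overlap (edgeR adjusted p = 0.72). P2ry2, which binds ATP and UTP, had 18.4, 27.1 and 23.9 CPM under green, 22.0, 19.0 and 21.1 CPM under blue and 13.7, 18.45 and 24.2 CPM under white light, with overlap throughout. P2ry4 and P2ry14 lay under 0.5 CPM in every library, and P2ry6 and P2ry13 reached at most 0.770 and 0.758 CPM.

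Adenosine, the breakdown product of ATP, acts on its own receptors. Adora1 had 6.465, 6.34 and 3.95 CPM in the green libraries, against 6.495, 7.46 and 8.38 CPM in the blue ones and 6.78, 7.56 and 6.77 CPM in the white ones. The green libraries thus lay below both other groups, by margins as narrow as 6.465 against 6.495 CPM (edgeR adjusted p = 0.703 for green minus blue and 0.913 for green minus white). Adora2a averaged 2.475 ± 0.402 CPM under green and 1.60 ± 0.497 CPM under white light (SD, n = 3 each), without overlap (edgeR adjusted p = 0.854). Ada, adenosine deaminase, averaged 32.4 ± 3.78 CPM under blue and 22.2 ± 2.98 CPM under white light, with an edgeR adjusted p of 1. The nucleoside transporter gene Slc29a2 averaged 56.2 ± 5.36 CPM under green and 49.6 ± 2.20 CPM under blue light (edgeR adjusted p = 0.731). Over the 11 genes tested of this list, 7 were higher and 4 lower in each comparison.

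Among channels that release ATP, Gja1, which encodes connexin 43, was lower under green light than in either other group in every library. It had 8.07, 12.6 and 11.3 CPM in the green libraries, against 16.6, 14.85 and 17.4 CPM in the blue ones and 15.3, 16.3 and 17.5 CPM in the white ones. The log2 difference was -0.61 ± 0.16 (SE) for green minus blue (edgeR adjusted p = 0.57) and -0.62 ± 0.16 for green minus white (0.764). Endothelial cells, astrocytes and Müller glia can also carry this connexin. Endothelial markers (9 of 9 in the table) summed to 388.5 to 393 CPM under green, 364 to 489 CPM under blue and 457 to 536 CPM under white light. Most of that sum was Flt1 and Kdr, which reached 386.5 and 165.2 CPM. Pecam1, Cdh5, Cldn5 and Tie1 of the same list reached at most 1.18, 0.225, 0.115 and 0.0589 CPM. The sum is thus no measure of endothelium in general. Astrocyte markers (6 of 6) summed to 119 to 159 CPM under green, 149.9 to 175 CPM under blue and 131 to 165.5 CPM under white light. Of these, Gfap reached at most 0.303 CPM and Pax2 0.180 CPM. Nearly all of the sum came from S100b, Cd44, Aldh1l1 and Pdgfra. Müller glia markers (9 of 10) summed to 10100 to 11040 CPM under green, 11050 to 12450 CPM under blue and 10030 to 11940 CPM under white light. Their sum did not overlap between green and blue, and 8 of the 9 were lower in green than in blue. The part of these cells in the level of Gja1 was not tested. Panx3, a pannexin, averaged 1.64 ± 0.284 CPM under green and 0.951 ± 0.0576 CPM under blue light, without overlap (edgeR adjusted p = 0.6685). The pannexin Panx1, through which ATP leaves many cells, overlapped in all comparisons (joint edgeR adjusted p = 0.949). Of the 12 genes tested, 5 were higher and 7 lower in each comparison.

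The ectonucleotidases, which break down ATP outside cells, gave 8 of 11 genes higher in blue than in white, with a median log2 difference of 0.21 against 0.005 for all genes. Entpd8 averaged 1.54 ± 0.200 CPM under green, 1.20 ± 0.328 CPM under blue and 0.638 ± 0.267 CPM under white light (SD, n = 3 each). Both colours lay above white without overlap (edgeR adjusted p = 0.814 for green minus white and 1 for blue minus white). Enpp3 averaged 3.565 ± 0.437 CPM under blue and 2.53 ± 0.650 CPM under white light, also without overlap (edgeR adjusted p = 1). Enpp2 ranged from 14.5 CPM in green library 3 to 119 CPM in green library 2, the libraries with the lowest and the highest pigment epithelium sum of the green group. The part of those cells was not tested.

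ASIC relatives and partners were close to balanced, with 9 of 15 genes higher in green than in white, 8 of 15 higher in blue than in white and 7 of 15 higher in green than in blue. Pick1, a PDZ protein that binds ASIC1 and ASIC2 subunits, averaged 33.7 ± 2.31 CPM under green and 37.4 ± 1.51 CPM under white light, without overlap (edgeR adjusted p = 0.923). Stoml1, a stomatin-like protein, averaged 40.9 ± 0.950 CPM under blue and 34.9 ± 3.895 CPM under white light (edgeR adjusted p = 1), and the epithelial sodium channel subunit Scnn1b 2.54 ± 0.301 against 1.56 ± 0.492 CPM in the same order of groups (edgeR adjusted p = 1).

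Other proton sensors gave 3 of 12 genes higher and 9 lower in green than in blue, with a median log2 difference of -0.04 against -0.003 for all genes. Kcnk9, an acid-inhibited potassium leak channel, averaged 3.86 ± 0.987 CPM under green and 2.65 ± 0.346 CPM under blue light, without overlap (edgeR adjusted p = 0.69). In acid-base transport 16 of 26 genes were higher in green than in blue, with a median of 0.06. Slc16a3, a lactate and proton exporter, averaged 247 ± 28.5 CPM under green and 190.0 ± 16.2 CPM under blue light (edgeR adjusted p = 0.6835). Ca9, a carbonic anhydrase on the cell surface, averaged 4.31 ± 0.696 CPM under blue and 6.13 ± 0.7125 CPM under white light (edgeR adjusted p = 1). Slc9a3, a sodium-proton exchanger, averaged 3.27 ± 0.0846 CPM under green and 3.57 ± 0.118 CPM under white light (edgeR adjusted p = 0.982).

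The list on P2X7 and the inflammasome, in which P2rx7 itself was not counted, had 8 genes tested, of which 2 were higher and 6 lower in green than in blue. Nlrp3, the sensor of that complex, had 1.05, 1.54 and 1.655 CPM under green, 1.63, 1.61 and 1.41 CPM under blue and 1.53, 1.53 and 1.64 CPM under white light. Txnip, which binds thioredoxin and Nlrp3, differed by 0.94 ± 0.19 (SE) in blue minus white on the log2 scale, without overlap, and did not pass in edgeR (adjusted p = 0.487). Il1b, whose protein the complex matures, was under 0.3 CPM in every library.

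**Figure D5:**
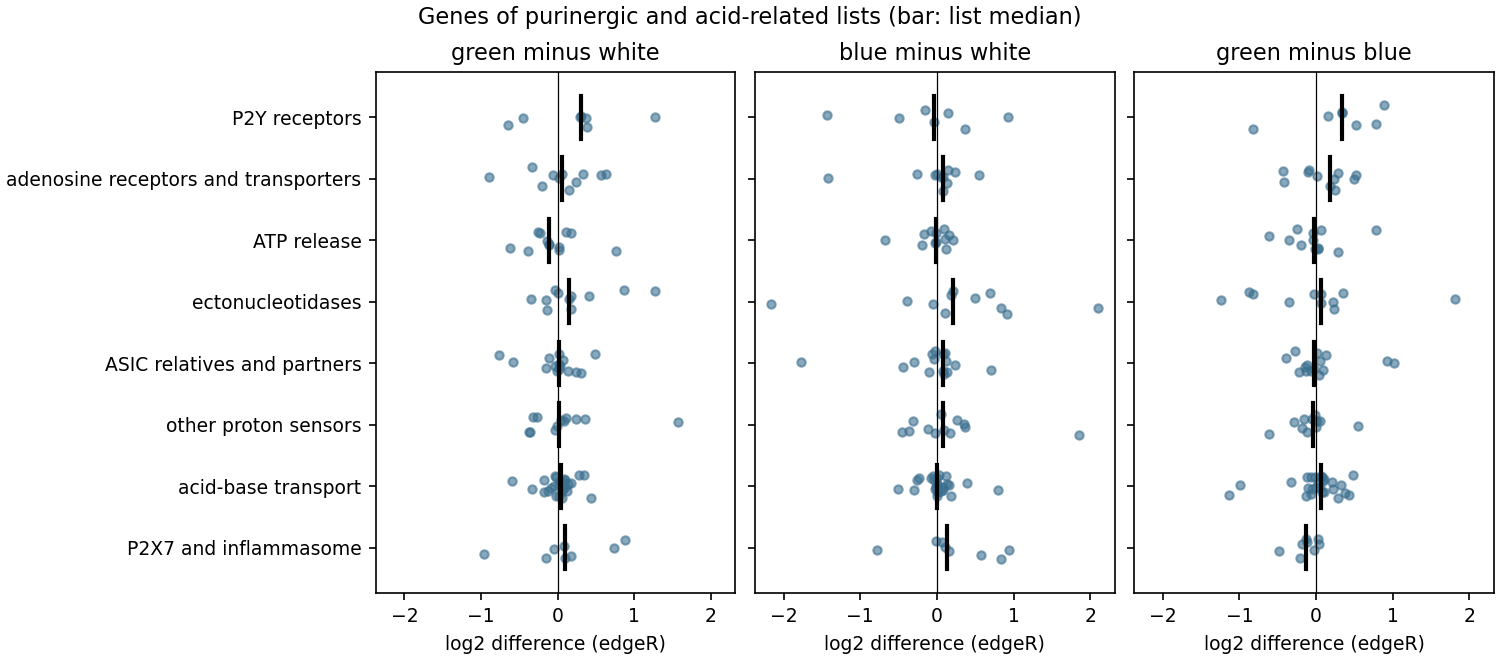
Log2 differences from edgeR of the tested genes of 8 lists on purinergic and acid-related functions (rows) in the contrasts of green with white, blue with white and green with blue. Points are genes, bars are list medians, and the P2Y receptor median stands at 0.30 in green minus white and 0.34 in green minus blue. The latter is the value of P2ry14, which reached at most 0.214 CPM.

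P2rx6 is also known from skeletal muscle. Skeletal muscle markers (11 of 13 in the table) summed to 12.0 to 13.7 CPM under green, 10.3 to 14.2 CPM under blue and 13.95 to 23.03 CPM under white light. The blue range overlapped the green one, and the part of these cells in the level of P2rx6 was not tested. Ganglion cell markers (10 of 10) summed to 1794 to 1962 CPM under green, 1634 to 1870 CPM under blue and 1716 to 1943 CPM under white light, and amacrine markers (10 of 10) to 927 to 1019, 962 to 1062 and 918.5 to 986 CPM in the same groups. Both sums overlapped between green and blue, and the part of these cells in the level of Asic1 was not tested.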

How the data were processed

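RNA of frozen retinas was prepared with Trizol for paired-end sequencing (HiSeq 2500), per the labels' protocols. The authors deposited whole-number counts per gene for 9 libraries, per the file headers. Not given in the sources used here are the aligner, counting tool, strand setting, genome build and annotation, so reads shared with overlapping or antisense genes cannot be told apart. Values 4, 8 and 12 are over-represented among low counts (2014 values equal 4 and 472 equal 3), so a unit may not be a single fragment.

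All 9 libraries entered a fit in edgeR 4.0.16 (R 4.3.3) with no covariate beside light. Low genes were removed with filterByExpr (at least 10 counts, 15 in total), libraries were scaled by TMM, and quasi-likelihood tests gave the joint test of 3 lights and the 3 contrasts, with Benjamini-Hochberg adjustment over 15469 genes and a threshold of 0.05. DESeq2 1.42.0 served as an alternative (likelihood ratio test for the joint test). The fit was tested on simulated data. Libraries are numbered in order of deposition, which pairs nothing across groups, and p-values treat them as independent although 2 of 3 in each group share an animal label. The labels 2R-23 (blue) and R-23 (white) were taken as different animals.

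The members, the gene lists, the naming rule and the alternatives were chosen with earlier results of these data known. The naming rule took all members, the 5 genes nearest in pattern to Asic1 and P2rx6, and of each list up to 2 genes a contrast, at 1 CPM or more, with the largest difference among those without overlap. Values of other list genes were chosen after they were seen, and marker lists are given by sums. Chromosomes are not named in the names table, so neighbouring genes were not used, and no sequence is shown.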

Additional observations from a re-analysis of the deposited data

How the results depend on the processing

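Of 19 alternatives none brought a member other than Asic1 and P2rx6 past the joint test, where the count stayed at 0. Of 558 log2 differences of members and relatives recomputed, 553 moved by less than the spread between libraries, and of 186 adjusted p-values 185 kept their side of the threshold, the exception being Asic3 in green minus blue under DESeq2 (0.0312). Green minus blue ran from 0.58 to 0.73 for Asic1 and from -0.59 to -0.46 for P2rx6, whose signs were largely fixed by how they were chosen. P2rx1 in blue minus white ran from -1.90 without blue library 1 to 0.28 without blue library 3. Counts over all genes, small in edgeR, depended on the setting, and the cause was not tested. DESeq2's test called 82 genes jointly, 24 in green minus white, 28 in blue minus white and 41 in green minus blue, against 1, 1, 1 and 0 in edgeR. The filter of 5 CPM and counts divided by 4 gave 0 in all of these, and counts summed per animal label gave 0 jointly. The pigment epithelium covariate gave 2 jointly and 2 in blue minus white. The "-B" covariate gave 2 jointly, 3 in blue minus white and 1 in green minus blue, and leaving out both "-B" libraries gave 12 jointly, 10 in green minus white and 12 in blue minus white. Leaving out a single library gave 0 to 6 genes jointly, 0 to 6 in green minus white, 0 to 7 in blue minus white and 0 to 4 in green minus blue. No paired analysis was possible because the labels give no replicate number that the light groups share.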

Other observations

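In the blue libraries Asic3 was more variable within an animal label than most genes. Between the 2 libraries of blue animal 32, titled as the right and left eye, it differed 1.41-fold, and 94.98% of 13556 genes differed by less, while between both eyes of white animal 6 only 12.9% of genes differed by less than Asic3. P2rx7 differed 1.16-fold in the blue and 1.17-fold in the white pair, where 76.5% and 57.75% of genes differed by less. Within a library the ratio of P2rx7 to P2rx4 counts was 1.445, 0.427 and 0.1675 under green, 0.215, 0.296 and 0.236 under blue and 0.805, 0.5 and 0.219 under white light.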
